A study of Mus musculus with 15 samples.

Results

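The libraries described here are the 3 from MW150-treated spinal muscular atrophy (SMA) mice and the 3 from wild-type (WT) mice, 6 of the 15 libraries of the study. They were chosen by their labels alone, so no measured value entered the choice, and the question is which genes and pathways stayed away from their WT level while p38 was inhibited. Each library holds poly(A) RNA from lumbar motor neurons (segments L1 to L3) that had been labelled with cholera toxin subunit B and cut out by laser-capture microdissection at postnatal day 6. WT mice were littermates with both Smn alleles (Smn+/+;SMN2;SMNΔ7) and received vehicle. SMA mice carried no functional mouse Smn (Smn-/-;SMN2;SMNΔ7), so every group, WT included, carried the human SMN2 and SMNΔ7 transgenes on an FVB background. SMA+MW150 mice received MW150, an inhibitor of the kinase p38α, by daily intraperitoneal injection of 5 mg/kg from postnatal day 0, and the vehicle-treated SMA group is set beside them. The remaining groups, SMA+SMN-C3 (3 mg/kg, a modifier of SMN2 splicing) and SMA+Pifithrin-alpha (2.2 mg/kg, a p53 inhibitor), enter the fit and a few side-by-side values. Each group has 3 libraries named as biological replicates. The labels do not say how many animals went into a library, so the p-values measure the spread between these libraries. SMNΔ7 mice model a severe, early form of the disease, and both sexes were used in equal proportions.

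SMA follows from too little SMN, a protein that assembles the small nuclear ribonucleoproteins of the spliceosome, and spinal motor neurons are the cells that are lost. In vulnerable motor neurons of SMA mice the transcription factor p53 accumulates, is phosphorylated and drives a programme of target genes, among them the cell cycle inhibitor gene Cdkn1a (p21) and the ubiquitin ligase gene Mdm2, which limits p53 in turn. The stress kinase p38α, encoded by Mapk14, is one of the kinases that act on p53, which is why its inhibitor was given.

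Values are TPM (a gene's share of all transcripts in its library, corrected for transcript length), divided by 1 scaling factor per library, and are called scaled TPM below. Of 36144 genes in the deposited table, 15425 (42.7%) reached 1 TPM in at least 3 of the 15 libraries and were tested with limma on log2(scaled TPM + 1), a scale that understates the change of low genes. A gene is called where its Benjamini-Hochberg adjusted p is under 0.05. Read counts cannot be recovered from TPM, so how many reads lie behind a value is unknown. All 10 motor neuron markers checked were present in all 6 libraries, the lowest value being 20.7 scaled TPM. Chat, which encodes the enzyme that makes acetylcholine, stood at 93.7, 89.1 and 113 scaled TPM in WT and at 95.3, 105 and 88.3 in SMA+MW150.

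The library WT 1 stood apart from the others. Its correlation across genes with the other libraries of WT, SMA and SMA+MW150 was 0.836 to 0.884, against 0.950 to 0.973 among the rest. Mitochondrially encoded genes held 21.9% of its TPM, against 7.55% and 7.52% in WT 2 and WT 3 and 5.68% to 7.52% in SMA+MW150. Many values against WT that its removal moved by over 1.5 times are therefore given with and without WT 1. A value given only with WT 1 is not thereby shown to be stable without it.

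In SMA+MW150 motor neurons, 19 genes differed from WT at the threshold, 0.123% of those tested. Of these, 18 were higher (0.117%) and 1, Smn1, was lower (0.00648%). At an unadjusted p under 0.05 the count was 1152 genes, 724 of them higher. The count of 19 fell to 11 without WT 1, and to 9, 10 and 8 without SMA+MW150 1, 2 and 3. The calls of 8 genes (Cdkn1a, Dcxr, Smn1, 1700007K13Rik, Crip2, Ly6d, Abhd11os and Acaa1b) held whichever of the 6 libraries was left out. The same fit called 46 genes (0.298%) between vehicle-treated SMA and WT, which share the WT libraries with the main comparison, and 1 gene (0.00648%) between SMA+MW150 and SMA.

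**Figure D1:**
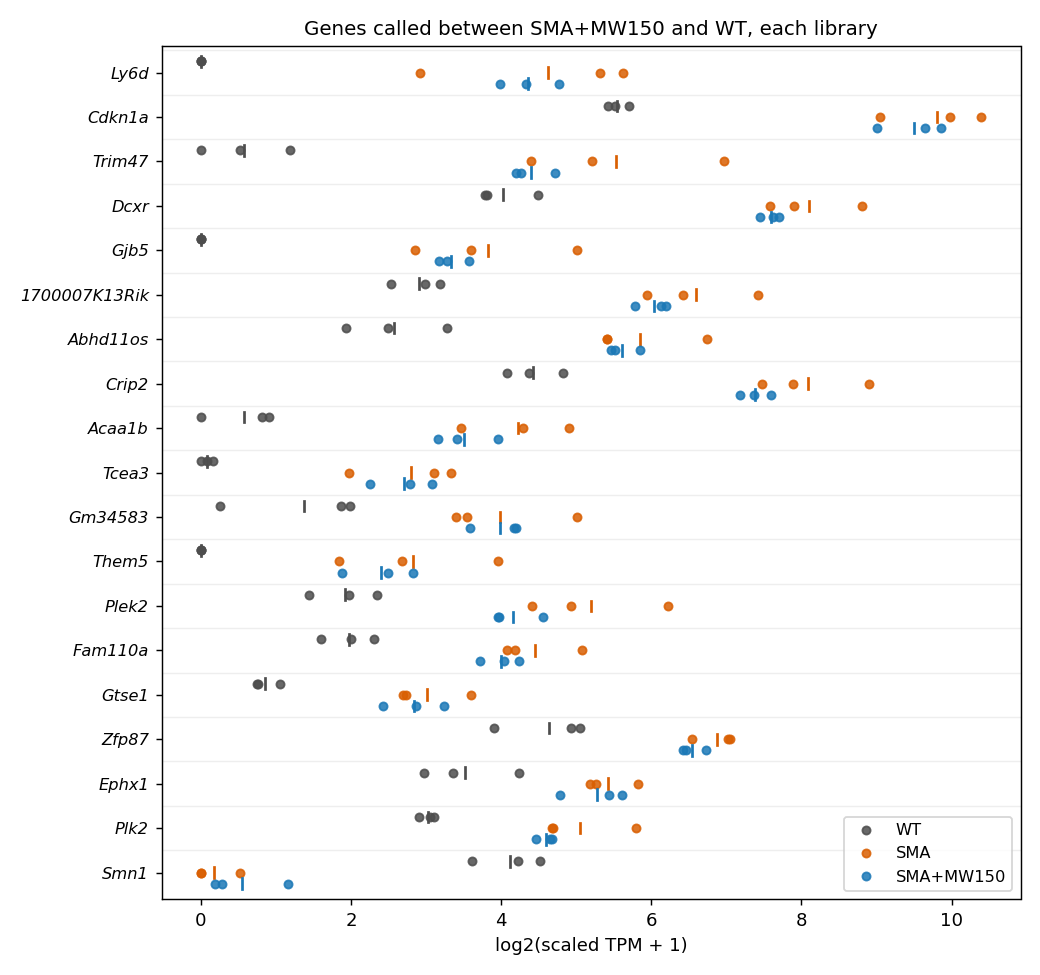
Scaled TPM of the 19 called genes in each library of WT, SMA and SMA+MW150, on a log2(scaled TPM + 1) axis; points are libraries and short bars are group means. All 18 genes called higher have their 3 SMA+MW150 libraries above their 3 WT libraries, within or close to the range of vehicle-treated SMA, and Smn1 lies at the left end in both SMA groups.

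Smn1 (chr13:100124852-100137690, GRCm38), the gene removed in this model, comes first because it checks the labels. It stood at 11.2, 17.8 and 22 scaled TPM in the WT libraries, at 0.435, 0 and 0 in SMA and at 1.24, 0.145 and 0.215 in SMA+MW150. The SMA+MW150 libraries all lay below the lowest WT library, and the log2 change was -3.57 ± 0.38 (SE, adjusted p = 0.000239). Against SMA the estimate was 0.37, with a 95% interval from -0.43 to 1.18. The gene is removed in both SMA groups, and its main transcript in WT, Smn1-201, was listed at 0 in all their libraries. This comparison therefore cannot test an effect of MW150 on Smn1. Within the SMN complex and its assembly partners, Smn1 was the 1 member of 14 tested that was called. Gemin4, a subunit of the complex, had a log2 change of 1.13 (adjusted p = 0.65), which was 0.58 without WT 1. Gemin8, another subunit, gave -1.06 (adjusted p = 0.65) and -0.64 without WT 1.

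Cdkn1a, the p53 target that blocks the cell cycle, carried the smallest adjusted p of the comparison. Its level was 44.8, 51.0 and 42.1 scaled TPM in WT, 1347, 1009 and 529 in vehicle-treated SMA, and 925, 800.0 and 513 in SMA+MW150. The lowest SMA+MW150 library was thus far above the highest WT library. The group mean was 746 ± 211 (SD, n = 3) in SMA+MW150, 962 ± 411 in SMA and 46.0 ± 4.57 in WT. The log2 change from WT was 3.95 ± 0.32 (SE, adjusted p = 1.29e-05). Against SMA it was -0.31 (95% interval -0.98 to 0.37), and the libraries of both SMA groups overlapped. In the other treated groups Cdkn1a stood at 355, 344 and 342 with SMN-C3 and at 578, 508 and 313 with Pifithrin-alpha, also above WT. Cdkn1a lies at chr17:29090976-29100727 (GRCm38, plus strand), and the opposite strand holds the gene AC167363.2; whether the counting used strand is not given in the sources used here.

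Both main Cdkn1a transcripts were more abundant in SMA+MW150 than in WT. Cdkn1a-202, which starts at base 29090979, had a mean of 24.6 scaled TPM in WT and 498 in SMA+MW150. Cdkn1a-201, which starts downstream at base 29093769, had means of 20.5 and 242. Both are annotated as protein coding. Cdkn1a-202 held 53.4% of the gene's TPM in WT and 66.7% in SMA+MW150, and no test was run on these shares.

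Promoter sequences of the genes in question were searched for the p53 half-site, a decamer with a C and a G at its core that p53 binds in pairs, in the 250 bases before each RefSeq transcription start (GRCm38.p6). The motif reads the same on both strands, and a full site was taken as 2 adjoining half-sites with at most 2 mismatches outside the core, so each full site can contain half-site matches. Among the 69 genes of the p53 pathway list, 58 had a promoter in the RefSeq table. A half-site stood in 13 of these 58 genes (22.4%), against 7.44% of tested genes and 8.20% of all 27025 genes with a promoter. The list was made of regulators and targets of p53, so a higher share in it says nothing about these libraries. Among the called genes, 17 had a promoter and 2 of them (11.8%), Cdkn1a and 1700007K13Rik, held a half-site. A full site stood in 3 of the 58 genes (5.17%), Cdkn1a, Ccng1 and Rps27l, against 0.329% of all genes. The sequences are shown because they set promoters of genes that lay above WT under MW150 beside 1, Rps27l, whose groups overlapped. Capitals mark the full site in the first 3 and the half-site in the last 2. Rps27l is outside the rule for named genes and was chosen after its values were seen.
Cdkn1a, chr17:29090903-29090972, plus strand, capitals 51 to 32 bases before the start of Cdkn1a-202: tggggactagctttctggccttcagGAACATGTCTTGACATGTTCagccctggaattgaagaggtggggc
Ccng1, chr11:40755437-40755506, minus strand, capitals 195 to 176 bases before the start: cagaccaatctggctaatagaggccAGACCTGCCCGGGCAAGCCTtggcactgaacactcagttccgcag
Rps27l, chr9:66946271-66946340, plus strand, capitals 117 to 98 bases before the start: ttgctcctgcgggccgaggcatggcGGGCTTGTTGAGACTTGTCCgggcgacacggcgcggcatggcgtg
Mdm2, chr10:117710910-117710969, minus strand, capitals 186 to 177 bases before the start: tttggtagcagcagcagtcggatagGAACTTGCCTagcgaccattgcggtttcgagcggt
1700007K13Rik, chr2:28466381-28466440, minus strand, capitals 91 to 82 bases before the start: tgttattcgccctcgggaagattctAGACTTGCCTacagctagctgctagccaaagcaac
A match describes the letters in this window and is not evidence of binding. Levels in the 5 genes differed widely: the log2 change from WT was 3.95 for Cdkn1a and 3.13 for 1700007K13Rik, both called, 1.46 for Mdm2 and 1.16 for Ccng1, and 0.14 (0.26 without WT 1) for Rps27l, a ribosomal-protein-like gene known as a p53 target.

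The p53 pathway list held 69 genes, all tested, in 4 groups by role. Of these, 5 were called higher than WT under MW150 (Cdkn1a, Gtse1, Plk2, Dcxr and Ephx1), and none lower. Among all tested genes 0.117% were called higher and 0.00648% lower. Without WT 1 the list had 3 calls higher (Cdkn1a, Dcxr and Ddit4l) and 0 lower. Gtse1, Plk2 and Ephx1 were then not called (limma adjusted p = 0.059, 0.070 and 0.163). The median log2 change of the list was 0.48, against 0.04 for all tested genes. In 31 of the 69 genes all 3 SMA+MW150 libraries lay above all 3 WT libraries, which held for 8.34% of all tested genes, and in 1 gene they lay below, which held for 7.59%. Without WT 1 the list's median was 0.43 and its counts were 41 above and 2 below, where the shares of all tested genes were 14.6% and 15%. In vehicle-treated SMA against the same WT libraries the list had a median of 0.69 and 11 calls. The list was chosen with earlier results of these data known, so its counts and medians describe it and are not an independent test.

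**Figure D2:**
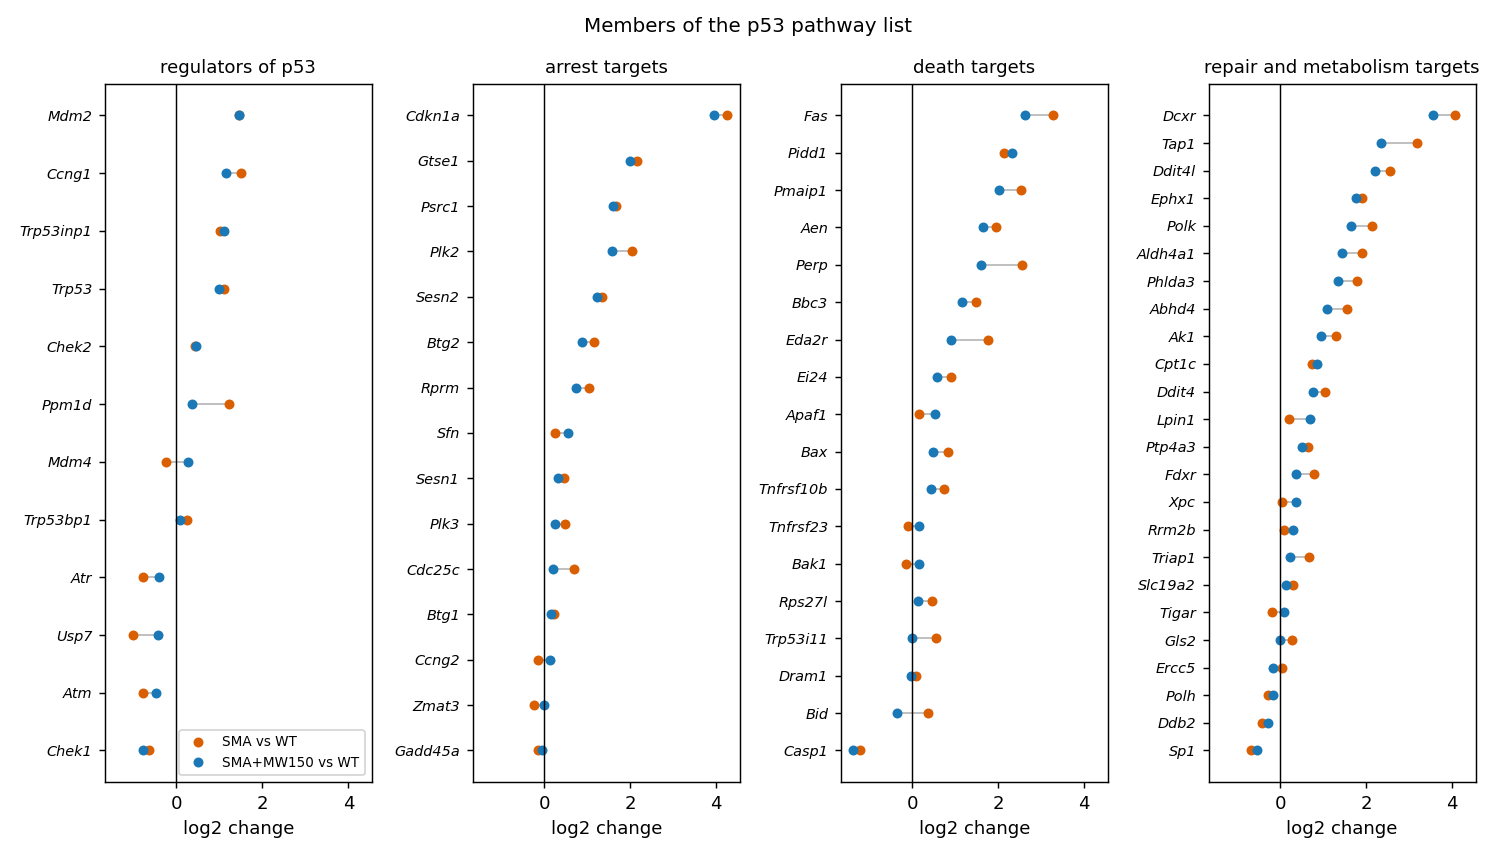
Log2 change from WT of the 69 members of the p53 pathway list, by role, for SMA+MW150 (blue) and vehicle-treated SMA (orange); a grey line joins both values of a gene. Both comparisons use the same 3 WT libraries. Cdkn1a (3.95) and Dcxr (3.56) lie farthest to the right for SMA+MW150, and Chek1 is among the few genes to the left of 0.

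Among the regulators of p53, Trp53 itself stood at 17.6, 17.2 and 14.8 scaled TPM in WT and at 28.6, 41.9 and 31.5 in SMA+MW150. The groups did not overlap, but the log2 change of 0.98 did not pass the test (adjusted p = 0.47). Mdm2 stood at 10.4, 11 and 14.2 in WT, 47.5, 22.8 and 35.8 in SMA and 41.4, 27.9 and 34.3 in SMA+MW150. All 3 SMA+MW150 libraries of Mdm2 were above WT and inside the SMA range, and the log2 change of 1.46 ± 0.28 missed the threshold by little (adjusted p = 0.061). Mdm4, a p53 inhibitor related to Mdm2, had a value of 0.26 (adjusted p = 0.85), which was 0.80 without WT 1 and -0.15 without WT 2. Ccng1, a cyclin gene under p53 control, gave 1.16 (adjusted p = 0.46). Chek1, a checkpoint kinase gene, was the member whose libraries lay below WT, with 11.1, 5.20 and 6.15 scaled TPM in WT and 4.43, 2.94 and 4.11 in SMA+MW150 (log2 change -0.77, adjusted p = 0.65; -0.48 without WT 1).

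The arrest targets had 3 calls among 15 genes, all higher, beside 0.117% of all tested genes, and a median of 0.55. Without WT 1 they had 1 call, Cdkn1a, and a median of 0.39. With all libraries the calls besides Cdkn1a were Gtse1, a gene of G2 and S phase that acts on p53 and p21, and Plk2, a polo-like kinase gene. Plk2 stood at 7.31, 7.65 and 6.50 scaled TPM in WT and at 21.1, 24.2 and 24.6 in SMA+MW150, tight groups that were far apart (log2 change 1.58 ± 0.29, adjusted p = 0.038). Gtse1 was a low gene, at 1.07, 0.701 and 0.686 in WT and at 8.45, 6.28 and 4.37 in SMA+MW150 (1.99 ± 0.36, adjusted p = 0.038). Neither call survived the loss of any 1 of the 6 libraries: the adjusted p then ran from 0.070 to 0.245 for Plk2 and from 0.059 to 0.299 for Gtse1. Psrc1, a microtubule-associated p53 target, gave 1.60 (adjusted p = 0.42) and Sesn2, a stress-induced sestrin gene, 1.24 (adjusted p = 0.54; 0.79 without WT 1), both without overlap.

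None of the 18 death targets was called. Their median was 0.50, and 8 lay above WT and 0 below, beside 8.34% and 7.59% of all tested genes. Without WT 1 the counts were 12 and 0, beside 14.6% and 15%, with a median of 0.57. Fas, the gene of a death receptor, stood at 0, 3.26 and 2.59 scaled TPM in WT, 45.0, 18.7 and 14.4 in SMA and 16.4, 14.2 and 12.4 in SMA+MW150 (log2 change 2.62 ± 0.55, adjusted p = 0.091). Aen, a nuclease gene, stood at 14.4, 35.5 and 34.7 in WT and at 85.6, 94.5 and 71.7 in SMA+MW150 (1.64 ± 0.32, adjusted p = 0.061). Pidd1, the scaffold gene of the PIDDosome, stood at 0, 0.344 and 1.33 in WT and at 5.64, 8.05 and 5.46 in SMA+MW150 (2.32 ± 0.48, adjusted p = 0.086). These 3 were the death targets nearest to the threshold. The BH3-only genes Pmaip1 (Noxa) and Bbc3 (Puma) gave 2.03 (adjusted p = 0.26) and 1.16 (adjusted p = 0.62), Perp, a membrane effector, 1.60 (adjusted p = 0.24), and Bax, the pore-forming effector, 0.48 (adjusted p = 0.65). The values of Bbc3 and Bax were 0.64 and 0.22 without WT 1.

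Death targets were also the p53 group with the most members below SMA under MW150. In 7 of the 18 all 3 SMA+MW150 libraries lay below all 3 SMA libraries and in none above, where 5.29% of all tested genes lay below and 5.39% above, and their median log2 change against SMA was -0.32. For the arrest targets that median was -0.14, for the repair and metabolism targets -0.24 and for the regulators 0.02, and for all tested genes -0.01. The mean log2 level of the death targets was 4.45, 3.88 and 3.88 in the SMA libraries and 3.67, 3.87 and 3.79 in SMA+MW150. SMA 1 thus lay apart, while SMA 2 and SMA 3 were close to the treated libraries. No p53 list member was called in this comparison. Bax illustrates the pattern, with 328, 257 and 251 scaled TPM in SMA and 205, 233 and 218 in SMA+MW150, which remained above the 107, 199 and 177 of WT.

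Repair and metabolism targets had a median of 0.60 over 24 genes. Of these, 12 lay above WT without overlap and 0 below, beside 8.34% and 7.59% of all tested genes. Without WT 1 the counts were 15 and 0, beside 14.6% and 15%. With all libraries 2 were called, both higher, beside 0.117% of all tested genes. Dcxr (chr11:120725399-120727281, minus strand), which encodes a dicarbonyl and xylulose reductase, stood at 21.4, 12.8 and 13 scaled TPM in WT, 447, 238 and 191 in SMA and 197, 206 and 174 in SMA+MW150. The SMA+MW150 libraries were close together and at the lower end of the SMA range, and the log2 change from WT was 3.56 ± 0.30 (SE, adjusted p = 1.31e-05). Ephx1, the gene of microsomal epoxide hydrolase, stood at 6.89, 9.29 and 17.8 in WT and at 47.8, 42.3 and 26.6 in SMA+MW150 (1.75 ± 0.33, adjusted p = 0.048). Leaving out 1 library ended its call in 5 of 6 fits (adjusted p 0.011 to 0.362), and it overlaps Gm36961 on the same strand. Tap1, a peptide transporter of antigen presentation, missed the threshold (2.34, adjusted p = 0.057) at 0, 0.211 and 1.24 in WT and 4.68, 8.24 and 5.70 in SMA+MW150. Ddit4l, an inhibitor of mTOR signalling, gave 2.21 (adjusted p = 0.27), and 2.92 without WT 1, where it was called (adjusted p = 0.032).

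The makeup of Dcxr transcripts also differed between the libraries. Dcxr-204, annotated as a retained-intron RNA, was listed at 0, 0 and 0.874 scaled TPM in WT and at 36.3, 35.9 and 36.7 in SMA+MW150, or 1.85% of the gene's TPM in WT and 18.9% in SMA+MW150. In vehicle-treated SMA it stood at 92.2, 47.0 and 30.2, or 19.4% of the gene. No test of transcript use was run.

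Outside the p53 list, 13 of the called genes were higher. Crip2 (chr12:113140236-113145506), which encodes a small LIM-domain protein, was the most abundant of them, at 15.9, 27.3 and 19.7 scaled TPM in WT, 475, 236 and 177 in SMA and 164, 192 and 144 in SMA+MW150 (log2 change 2.96 ± 0.33, adjusted p = 0.000288). 1700007K13Rik (chr2:28462001-28466332, minus strand), a protein-coding gene without an established name, stood at 8.08, 6.93 and 4.81 in WT, 170, 84.8 and 60.4 in SMA and 72.0, 69.3 and 54.1 in SMA+MW150 (3.13 ± 0.35, adjusted p = 0.000288). Abhd11os, a non-coding gene on the strand opposite Abhd11, stood at 4.63, 8.75 and 2.84 in WT, 106, 41.4 and 41.4 in SMA and 43.2, 44.7 and 56.6 in SMA+MW150 (3.04 ± 0.38, adjusted p = 0.00103). In each of these 3 genes the treated libraries were spread less than the vehicle-treated ones, whose first library was the highest.

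Several called genes were close to silent in WT. Ly6d, a GPI-anchored surface protein gene of the Ly6 family, was listed at 0 in all 3 WT libraries, at 38.9, 48.3 and 6.55 scaled TPM in SMA and at 19.2, 14.8 and 26.3 in SMA+MW150 (adjusted p = 0.000803). Gjb5, a connexin gene, was listed at 0 in WT and stood at 10.9, 8.01 and 8.68 in SMA+MW150 (adjusted p = 0.020), and Them5, a thioesterase gene, was listed at 0 in WT and stood at 6.10, 2.69 and 4.64 (adjusted p = 0.038). No fold is given for these 3, since WT was at 0 and the fitted change depends on the pseudocount. Tcea3, a transcription elongation factor gene, was at most 0.116 in WT and at 7.45, 3.79 and 5.89 in SMA+MW150 (2.63 ± 0.42, adjusted p = 0.017). Acaa1b, a peroxisomal thiolase gene that overlaps Dlec1 on the other strand, stood at 0, 0.764 and 0.883 in WT and at 9.61, 14.6 and 7.97 in SMA+MW150 (2.93 ± 0.40, adjusted p = 0.00249). Each gene of this paragraph was under 1 TPM in every WT library, so it passed the filter only through the SMA groups. With no filter on low values Gjb5, Them5 and Tcea3 lost their calls, while Ly6d and Acaa1b kept theirs.

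The remaining called genes were Trim47, Plek2, Fam110a, Zfp87 and Gm34583. Trim47, a RING-type ubiquitin ligase gene, stood at 0, 1.29 and 0.435 in WT, 125, 36.1 and 20.1 in SMA and 25.3, 18.2 and 17.4 in SMA+MW150 (3.82 ± 0.69, adjusted p = 0.038). Most of it in SMA+MW150, 84.0%, was assigned to Trim47-206, a processed transcript, and the gene overlaps Trim65 on the same strand. Plek2, a pleckstrin family gene, stood at 1.72, 2.92 and 4.07 in WT and at 22.5, 14.7 and 14.5 in SMA+MW150 (2.24 ± 0.40, adjusted p = 0.037). Fam110a, a centrosome-associated gene, gave 2.03 ± 0.32 (adjusted p = 0.015), the zinc finger gene Zfp87, which overlaps Gm26965, 1.90 ± 0.32 (adjusted p = 0.020), and the pseudogene Gm34583 2.61 ± 0.48 (adjusted p = 0.038). These calls were less firm: Trim47, Gjb5 and Them5 lost theirs in every fit without 1 library (adjusted p 0.062 to 0.299 over the 3 genes), Tcea3, Plek2 and Gm34583 kept theirs in 1 such fit of 6, Zfp87 in 2 and Fam110a in 3. Without WT 1 the adjusted p was 0.0516 for Fam110a, 0.0552 for Tcea3, 0.0545 for Zfp87, 0.123 for Plek2 and 0.044 for Gm34583.

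Set beside vehicle-treated SMA, the 18 raised genes were at a similar or somewhat lower level under MW150, and none was called in that direct comparison. Their log2 change against SMA ran from -1.14 (Trim47) to 0.00 (Gm34583), with a median of -0.44, and 17 of the 18 estimates were below 0. In none of the 18 did the SMA+MW150 and SMA libraries separate. The 95% interval lay below 0 for 2 of them, Plek2 (-1.03, interval -1.87 to -0.19) and Crip2 (-0.71, interval -1.41 to -0.01), before adjustment; after it no p of the 18 was below 1. These genes were chosen on SMA+MW150 values that this comparison also uses. The 1 gene called between SMA+MW150 and SMA, Traj45 (chr14:54172828-54172890), is a short J segment of the T cell receptor alpha locus and was listed at 5.92, 7.30 and 6.64 scaled TPM in SMA and at 0 in every other library (adjusted p = 0.000148). Traj45 passed the filter only through the SMA libraries. The groups at 0 also added no spread to its fit, so its p cannot be taken as support for an effect of MW150.

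**Figure D3:**
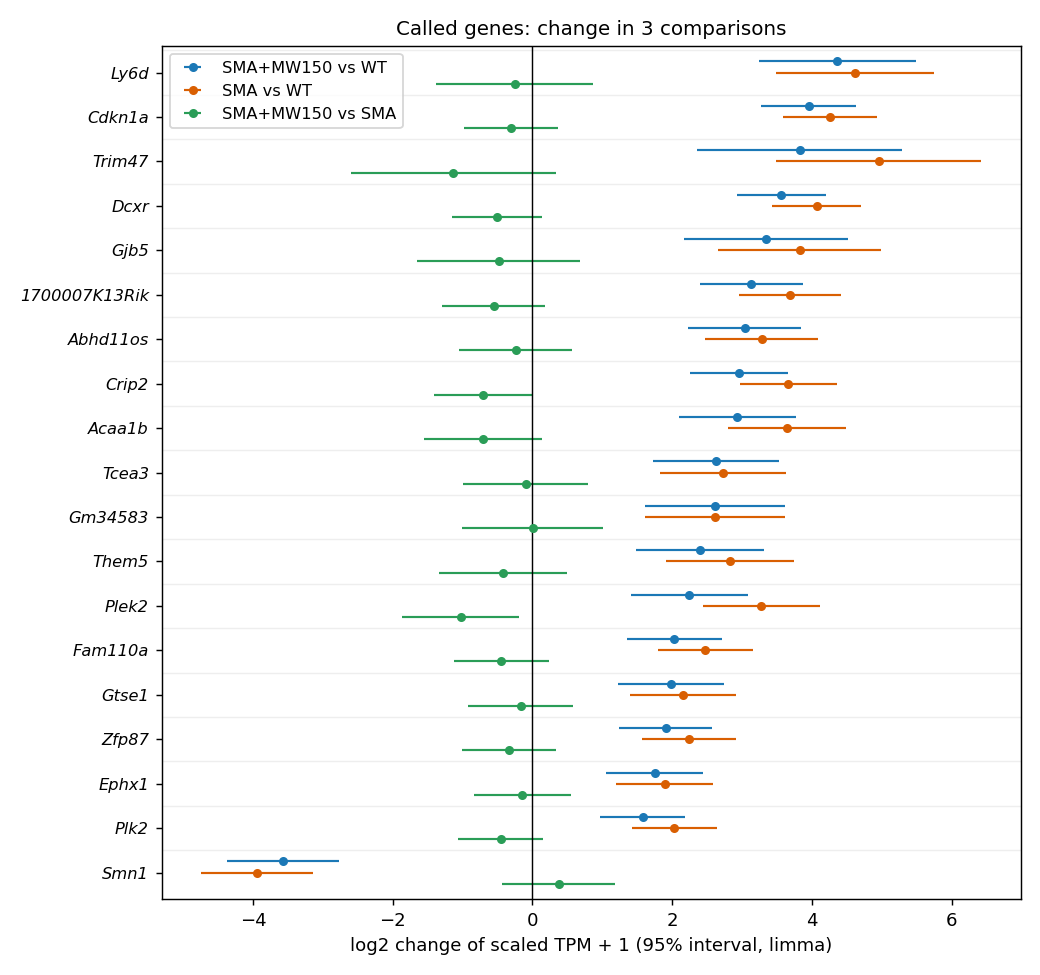
Log2 change with 95% intervals from limma of the 19 called genes in SMA+MW150 against WT (blue), SMA against WT (orange) and SMA+MW150 against SMA (green); the comparisons share libraries, and the values of Ly6d, Gjb5 and Them5 depend on the pseudocount because WT was at 0. Blue and orange intervals lie on the same side of 0 for every gene, while the green intervals reach 0 for all but Plek2 and Crip2.

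Few genes were called against the other treatments. Between SMA+MW150 and SMA+SMN-C3, 1 gene was called (0.00648%): Ly6d, which was listed at 0 in all 3 SMN-C3 libraries, as in WT (adjusted p = 0.0048). All 3 SMA+MW150 libraries of Cdkn1a lay above all 3 SMN-C3 libraries, but the log2 difference of 1.06 was not called (95% interval 0.38 to 1.73, adjusted p = 0.52). Between SMA+MW150 and SMA+Pifithrin-alpha limma called 0 genes (0%), with 1319 at an unadjusted p under 0.05. Cdkn1a gave 0.68 there (95% interval 0.01 to 1.36, adjusted p = 0.58).

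The p38 cascade was examined because MW150 acts on it. Of 14 genes on the kinase list, which includes the activator gene Tab1, none was called and the median log2 change from WT was 0.21. Mapk14, which encodes p38α, stood at 6.36, 6.23 and 7.79 scaled TPM in WT and at 7.61, 9.70 and 15.4 in SMA+MW150, overlapping groups (0.56, adjusted p = 0.65). The members of this list whose libraries lay above WT were Map3k20, the upstream kinase ZAK, at 1.70, 1.56 and 1.62 in WT and 6.6, 4.34 and 4.57 in SMA+MW150 (1.21, adjusted p = 0.28), and Tab1, an activator of p38α (0.76, adjusted p = 0.65). Map2k3, which phosphorylates p38, gave 0.74 (adjusted p = 0.65), and 0.29 without WT 1. Among 14 downstream kinases and effectors none was called, with a median of 0.16 (0.0078 without WT 1), and the ternary complex factor gene Elk4 gave 0.63 (adjusted p = 0.65). Of 13 AP-1 and early response genes none was called. Fos stood at 10.1, 13.6 and 26.1 in WT and at 36.8, 37.8 and 28.2 in SMA+MW150 (1.10, adjusted p = 0.61), and Junb gave 0.71 (adjusted p = 0.65), both without overlap.

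Other stress lists had no called member. Their counts were small and are set beside the 8.34% above and 7.59% below of all tested genes. Of 22 genes of the integrated stress response 2 lay above WT and 1 below, of 19 unfolded protein response genes 0 lay above and 3 below, and of 16 axon injury genes 2 lay above and 0 below. Their median log2 changes were 0.15, 0.02 and 0.30, beside 0.04 for all tested genes, and 0.056, -0.17 and 0.32 without WT 1. Without WT 1 their counts above and below were 3 and 2, 1 and 5, and 2 and 3, beside 14.6% and 15% of all tested genes. Of 17 Sm and LSm genes, which encode the rings that the SMN complex assembles, 0 lay above and 3 below, with a median of -0.04. For these and the unfolded protein response genes the share below was larger than among all tested genes. Without WT 1 the Sm and LSm counts were 0 and 4, with a median of -0.18. Of 17 interferon response genes 3 lay above and 0 below, a larger share above than among all tested genes, with a median of 0.33. Without WT 1, 6 interferon response genes lay above and 0 below, beside 14.6% and 15% of all tested genes, with a median of 0.41.

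Below WT, Smn1 was the gene that passed the test, yet some groups of genes lay lower together. All 13 mitochondrially encoded genes had log2 changes below 0, 11 of them without overlap, with a median of -1.04, and this group depends on WT 1 for its size. mt-Nd1, a subunit gene of complex I, stood at 27067, 8285 and 7592 scaled TPM in WT and at 6487, 5461 and 4792 in SMA+MW150 (-1.11, adjusted p = 0.65), and was at -0.51 without WT 1. mt-Nd2 gave -1.32 with WT 1 and -0.63 without it. Without WT 1 the median of the group was -0.42, again with 11 of 13 below.

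**Figure D4:**
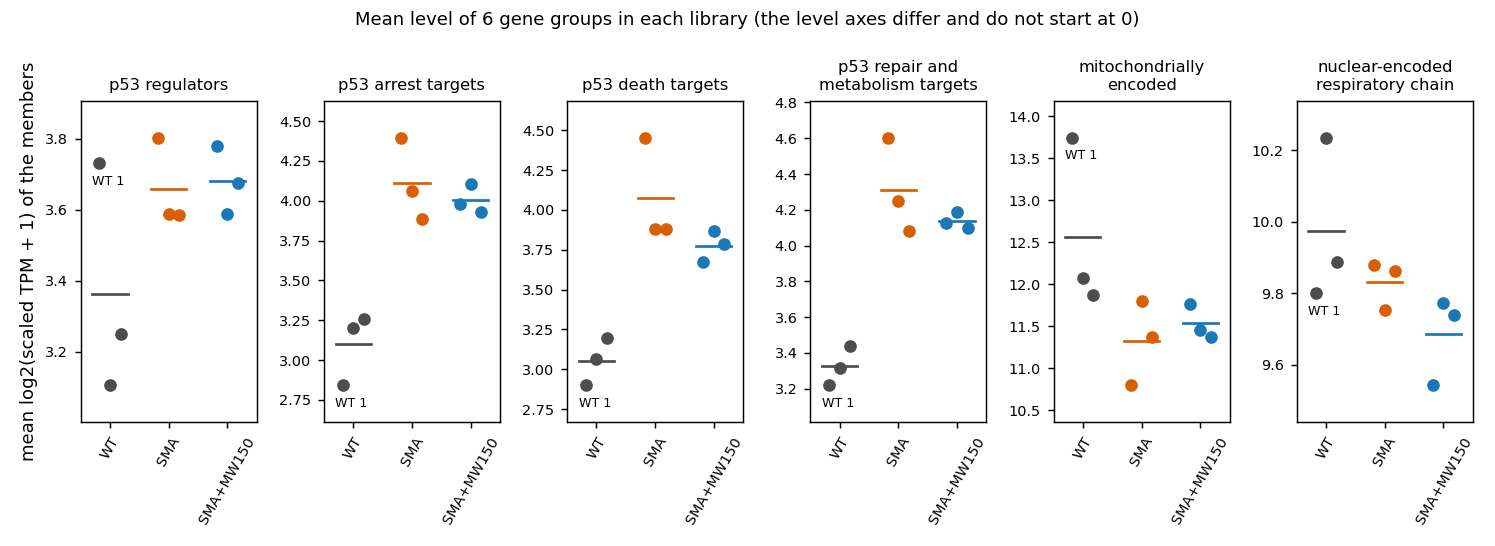
Mean log2(scaled TPM + 1) over the tested members of 6 gene groups in each library of WT, SMA and SMA+MW150, with bars at group means; WT 1 is marked, and the axes differ between panels. The 3 p53 target groups separate WT from both SMA groups, WT 1 lies far above all other libraries for mitochondrially encoded genes, and the SMA+MW150 libraries lie below all WT libraries for the nuclear-encoded respiratory chain.

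The nuclear-encoded respiratory chain genes showed a small difference in many members. None of the 76 was called. In 25 the SMA+MW150 libraries lay below WT without overlap and in 0 above, against 7.59% and 8.34% of all tested genes, and the median was -0.16. Without WT 1 the count was 50 below and 0 above, against 15% and 14.6%, with a median of -0.36. The sign of that median was not stable: it was 0.18 with TPM as deposited, where all tested genes had a median of 0.31, 0.09 after quantile normalization, where that median was 0.02, and 0.04 without WT 2. Atp5c1, a subunit gene of ATP synthase, stood at 1395, 1181 and 1047 in WT and at 698, 800.0 and 749 in SMA+MW150 (-0.68, adjusted p = 0.65), and Ndufc1, of complex I, gave -1.0 (adjusted p = 0.65), and -0.51 without WT 1. In vehicle-treated SMA the median against WT was -0.02. Between SMA+MW150 and SMA the median was -0.15, with 14 members below without overlap and 0 above. In that comparison 5.29% of all tested genes lay below and 5.39% above. Other housekeeping groups had smaller shares: 8 of 38 proteasome genes, 8 of 78 mitochondrial ribosomal protein genes (Mrps15, -0.58, adjusted p = 0.57) and 10 of 86 cytosolic ribosomal protein genes (Rpl15, -0.45, adjusted p = 0.65) lay below WT, with medians of -0.06, -0.01 and -0.08, all 3 of which were above 0 with TPM as deposited, after quantile normalization and without WT 2. Without WT 1 these counts were 22 of 37, 25 of 78 and 19 of 86, beside 15% of all tested genes. Above WT lay 1, 0 and 1, beside 14.6%, and the medians were -0.22, -0.20 and -0.25.

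No gene on the lists of motor neuron function was called. Among 12 subtype genes, 4 lay below WT without overlap and 1 above, where the shares of all tested genes were 7.59% and 8.34%. Leaving out WT 1 gave 5 and 2, beside 15% and 14.6%. Calca, which encodes CGRP, stood at 2866, 2296 and 2676 in WT, 984, 1083 and 1535 in SMA and 1158, 1171 and 959 in SMA+MW150 (-1.25, adjusted p = 0.62), and its relative Calcb at 805, 1176 and 1429 in WT, 515, 474 and 801 in SMA and 516, 485 and 420 in SMA+MW150 (-1.23, adjusted p = 0.26). Chodl, a marker of fast motor neurons, stood at 673, 515 and 724 in WT, 112, 127 and 359 in SMA and 312, 197 and 159 in SMA+MW150 (-1.56, adjusted p = 0.54). Each of these 3 was about as low under MW150 as in vehicle-treated SMA, and outside the WT range. Wnt7a, a marker of gamma motor neurons, was the member above WT (1.35, adjusted p = 0.63; 0.88 without WT 1).

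No receptor or potassium channel gene was called. Of 19 GABA and glycine receptor genes, 5 lay below without overlap and 0 above, with a median of -0.31. Without WT 1 the counts were again 5 and 0, while the shares of all tested genes went from 7.59% below and 8.34% above to 15% and 14.6%, and the median was -0.02. Glra2, a glycine receptor subunit gene, stood at 107, 48.1 and 64.2 in WT and at 35.9, 31.5 and 22.6 in SMA+MW150 (-1.20, adjusted p = 0.46). Glrb, the subunit that anchors glycine receptors at synapses, gave -0.87 (adjusted p = 0.65), and -0.44 without WT 1. Of 24 glutamate receptor genes, 5 lay below WT and 2 above. Grm7, a presynaptic metabotropic receptor gene, stood at 32.0, 12.8 and 16.2 in WT and at 6.12, 8.01 and 5.20 in SMA+MW150 (-1.43, adjusted p = 0.28), Gria4, an AMPA receptor gene, gave -0.68 (adjusted p = 0.65; -0.41 without WT 1), and Grm8 lay above WT (1.95, adjusted p = 0.39). Of 67 potassium channel genes, 5 lay below and 4 above, no larger a share than among all tested genes, with Kcnj3 (-1.32, adjusted p = 0.61) and Kcnk9 (-0.74, adjusted p = 0.62) among those below. Without WT 1, 9 of 66 potassium channel genes lay below and 7 above, beside 15% and 14.6%. Of 22 neurofilament and microtubule genes, 4 lay below WT and 0 above, beside 7.59% and 8.34% of all tested genes, with a median of -0.17. Without WT 1 the counts were 11 and 0, beside 15% and 14.6%, with a median of -0.24. Nefl, the neurofilament light chain gene, gave -0.57 (adjusted p = 0.65). Agrn, the organizer of the neuromuscular synapse, stood at 74.3, 78.8 and 62.4 in WT and at 48.2, 50.9 and 61.5 in SMA+MW150 (-0.42, adjusted p = 0.68). Most Agrn TPM was assigned to the retained-intron transcript Agrn-205 in both groups (89.0% in WT and 86.1% in SMA+MW150).

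Frzb and Rspo2, secreted modulators of Wnt signalling, were among the genes with the lowest estimates whose groups did not overlap, at 22.2, 10 and 7.88 in WT against 1.38, 3.86 and 1.87 in SMA+MW150 for Frzb (-2.03, adjusted p = 0.31) and -1.67 (adjusted p = 0.44) for Rspo2. The GABA receptor gene Gabrq gave -1.76 (adjusted p = 0.45), and -1.14 without WT 1. In the same set, Gm19932, Zfp433 and Slc10a7 rested largely on WT 1: Zfp433 stood at 128, 13.7 and 13.2 in WT and at 9.33, 6.33 and 5.46 in SMA+MW150, and its value of -1.93 was -0.87 without WT 1. Gm19932 went from -2.21 to -1.17 and Slc10a7 from -1.67 to -0.86. None of the 6 was called.

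Markers of other cells were checked because a captured profile can hold neighbouring tissue. In such samples fewer cells of a type and less RNA per cell cannot be told apart. The microglial list had 3 of 13 members above WT without overlap and 0 below, beside 8.34% and 7.59% of all tested genes, a median of 0.45, and summed levels of 71.3 to 92.9 scaled TPM in WT, 132 to 149 in SMA and 95.4 to 126 in SMA+MW150. Microglia also make the complement proteins encoded by C1qa, itself a member of that list, C1qb and C1qc. C1qa stood at 2.20, 5.84 and 4.01 in WT and at 10.9, 10.9 and 8.23 in SMA+MW150 (1.19, adjusted p = 0.62), C1qb gave 1.19 (adjusted p = 0.61) and C1qc 0.90 (adjusted p = 0.65). Of 11 complement genes, 4 lay above WT, none was called and the median was 0.66. The lysosomal protease gene Ctsz gave 2.11 (adjusted p = 0.26) and 1.17 without WT 1. The microglial list had, without WT 1, 5 members above and 0 below, beside 14.6% and 15% of all tested genes, with a median of 0.27. Of 14 oligodendrocyte lineage markers none separated the groups, and their median was 0.64, with summed levels of 775 to 2485 in WT and 960 to 5599 in SMA+MW150. Mag, a myelin gene, stood at 27.4, 85.8 and 24.1 in WT and at 96.5, 49.9 and 235 in SMA+MW150 (1.41, adjusted p = 0.65). No member of the microglial or oligodendrocyte list was at 0 in any of these libraries, and the part of these cells in the differences from WT was not tested. Of 13 astrocyte markers 1 lay above WT, a share at that of all tested genes, with a median of 0.32 (0.17 without WT 1). Among 32 replication-dependent histone genes 5 lay above WT and 0 below, beside 8.34% and 7.59% of all tested genes. Their median was 0.33 (0.20 without WT 1), and Hist2h2aa1 gave 0.93 (adjusted p = 0.42). Without WT 1, 8 of 31 histone genes lay above and 1 below, beside 14.6% and 15%. Histone and ribosomal protein genes have close copies in the genome, so the values of single members are uncertain.

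**Figure D5:**
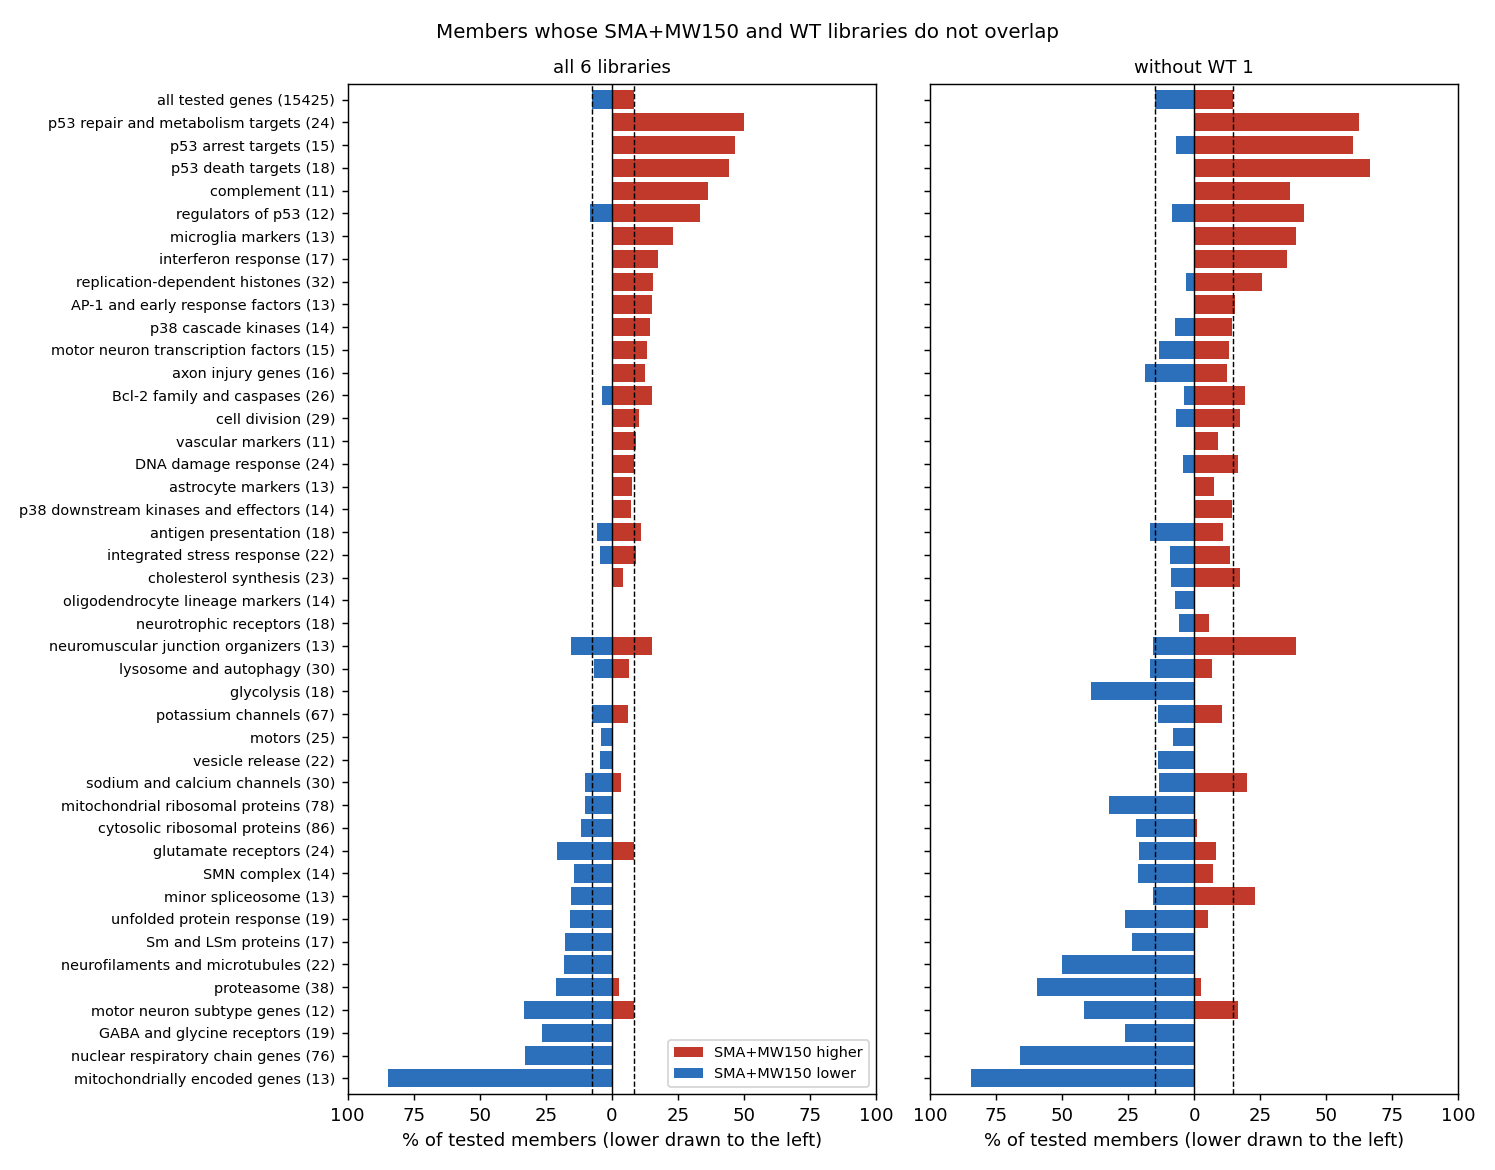
Share of tested members of each gene list with at least 10 tested genes (number in brackets, all libraries) whose 3 SMA+MW150 libraries lay above (red) or below (blue) all WT libraries, with all 6 libraries (left) and without WT 1 (right); dashed lines give the shares among all tested genes, 8.34% and 7.59% on the left and 14.6% and 15% on the right. The p53 target groups extend farthest to the right in both panels, and the mitochondrially encoded genes farthest to the left.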

How the data were processed

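RNA from laser-captured motor neurons was sequenced with paired ends of 100 bases in 15 libraries. The authors deposited 2 TPM tables, for genes and for transcripts, with 15 library columns each; the submitters' processing notes name kallisto 0.44.0 and the builds GRCm38.p6 and mm10. The annotation release is not given in the sources used here. Of 118489 transcripts, 116728 (98.5%) matched GENCODE M21, the source of coordinates, as did 35933 of 36144 gene symbols. Promoters came from RefSeq (GRCm38.p6).

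TPM was divided by median-of-ratios factors (14180 genes above 0 in every library), filtered at 1 TPM in at least 3 libraries and taken as log2(value + 1). limma 3.58.1 in R 4.3.3 fitted 1 mean per group to all 15 libraries with a variance trend, two-sided, with Benjamini-Hochberg adjustment over 15425 genes. TPM keeps no counts, so no count model was used, and the 95% intervals are limma's, from the spread between libraries. The code was tested on simulated data. Tables and figures used Python 3.11.15, pandas 2.3.3 and matplotlib 3.10.9.

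Gene lists and members were chosen with earlier results of these data known. Named genes were all called genes, 8 fixed genes (Smn1, Trp53, Cdkn1a, Mdm2, Mdm4, Mapk14, Agrn and Chat), up to 4 members per list with the smallest p and a group mean of at least 5 TPM, and up to 10 of the largest falls without overlap and a WT mean of at least 10 TPM; not all are described. Alternatives changed the scaling, pseudocount, filter, variance model, libraries in the fit and replicate block.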

Additional observations from a re-analysis of the deposited data

How the results depend on the processing

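Of the 1315 values of 78 named genes against WT under alternative settings, 1193 kept their direction and side of the threshold, 90 fell below it, 27 passed it and 5 changed sign. Those 5 were Mdm4 without WT 2 (-0.15; -0.15 to 0.80 over the fits without 1 library) and Chat, at -0.03, with TPM as deposited (0.30), after quantile normalization (0.11), and without WT 3 or SMA+MW150 3 (0.068 and 0.02; -0.10 to 0.068 without 1 library). The 19 genes called against WT became 10 with no filter on low values, 71 with limma array weights (60 higher, 11 lower) and 11 with only the groups compared; leaving out 1 library gave 8 to 16. SMA against WT had 46, then 119 with array weights, 7 with only the groups compared and 20 to 57 without 1 library. SMA+MW150 against SMA had 1, then 0 with a pseudocount of 0.1 or a filter at a mean of 5 TPM, 2 with no filter or only the groups compared, 3 with array weights and 0 to 1 without 1 library. SMA+MW150 against SMA+SMN-C3 had 1, then 2 with quantile normalization or a pseudocount of 0.5, 4 with a pseudocount of 0.1, 0 with no filter, 985 with array weights, 70 with only the groups compared and 0 to 2 without 1 library. SMA+MW150 against SMA+Pifithrin-alpha had 0, then 1 with only the groups compared. The p53 list's median of 0.48, added after seeing the data with the counts of separated members without WT 1, was 0.74 with TPM as deposited, 0.39 after quantile normalization and 0.43 to 0.61 without 1 library. The cause of these differences was not tested, apart from the fewer libraries or genes that a setting implies.

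Replicate numbers were not shown to pair the libraries: residual correlations of same-numbered WT and SMA+MW150 libraries were 0.05 to 0.24, and 4 of 30 same-numbered pairs over all groups exceeded 0.1. With the replicate block 17 genes were called against WT in place of 19, 15 of them the same; Plek2 (adjusted p = 0.066), Them5 (0.055), Plk2 (0.065) and Ephx1 (0.11) were no longer called. With 3 libraries a group and an unknown depth, small changes in low genes were not detectable.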
